A study of Homo sapiens with 12 samples.

Results

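The genes described here are 42 genes of the ATF4 pathway, the arm of the integrated stress response that adjusts amino acid supply. They were chosen by gene symbol, current or older, from the array's platform annotation, and a gene counted as measured when 1 of its probes was detected, with a detection p below 0.01, on 3 arrays or more out of 12. Of the 42 genes, 39 were measured among 9409 genes in all, and CHAC1, GPT2 and CARS1, for which the annotation used here names no probe, were not analysed. The measured genes comprised 10 stress kinases, transcription factors and their regulators, 5 enzymes of serine synthesis and one-carbon metabolism, 5 other amino acid enzymes, 6 amino acid transporters, 11 cytosolic aminoacyl-tRNA synthetases, and the secreted or surface proteins STC2 and VLDLR.

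In the integrated stress response, kinases such as PERK (the product of EIF2AK3) and GCN2 (EIF2AK4) phosphorylate the translation initiation factor eIF2, which lowers bulk protein synthesis while favouring translation of the transcription factor ATF4. ATF4, often paired with a C/EBP protein, binds C/EBP-ATF response elements and induces genes for amino acid synthesis, amino acid uptake and tRNA charging. Much of ATF4's regulation is translational, so the level of its mRNA is a different quantity from its activity.

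The study used Cal51, a human breast carcinoma cell line, and small interfering RNA against IPMK (siIPMK), an inositol polyphosphate multikinase, with a control siRNA (siCONTROL) as its comparison. The 4 groups were siIPMK with the DNA crosslinking drug mitomycin C (MMC), siIPMK untreated, siCONTROL with MMC and siCONTROL untreated, with 3 arrays each from experiments numbered 1 to 3. RNA was taken 72 h after transfection, and MMC was present for the last 24 h. Only the cytoplasmic fraction, released with digitonin, was hybridised, so less of a transcript in the cell and less of it in the cytoplasm cannot be told apart. In such bulk samples fewer cells of a kind and less RNA per cell cannot be told apart either. All arrays came from 1 cell line, and the labels give neither the number of siRNA sequences used nor whether the 3 arrays of a group came from separate cultures, so p-values measure the spread between these samples, which may be technical.

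The arrays had 12122 to 13458 detected probes each, and the epithelial genes KRT8, KRT18, KRT19 and EPCAM and the mesenchymal genes VIM and CDH2 were detected on all 12. These identity genes also moved with depletion: KRT8, KRT19 and EPCAM rose in both treatments (KRT19 by 1.50 without MMC and 1.31 with MMC on the log2 scale), as did CDH2 (1.27 and 1.46), while KRT18 and VIM did not pass, and their part in the results was not tested. Of the genes listed for other cell types, PDGFRB was detected on 12 arrays, PECAM1 on 11, and VWF and COL1A1 on 1 each. No probe was named for IPMK, so its depletion could not be read from these arrays. The siIPMK arrays of experiment 1 stood apart: on the first principal component, which held 67.5% of the variance, they lay at -11.97 with MMC and -6.64 without it, while the other siIPMK arrays lay between -38.42 and -32.18 and the siCONTROL arrays between 22.73 and 30.42. Among members that passed the test, the siIPMK array of experiment 1 showed the smallest difference from the siCONTROL mean in 19 of 21 without MMC and in 15 of 19 with MMC. The same count was not made over all genes. The principal component was taken over all genes tested, so this shift is not shown to be particular to the members. Values without these arrays are therefore given as well. These arrays were picked because they lay nearest to the siCONTROL arrays, so leaving them out favours larger differences. A pass gained in that fit is a description and no separate support.

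The first comparison asked how the cytoplasmic level of each gene differed after IPMK depletion. Pathway genes moved in both directions: 5 of 6 member transporters in each treatment, the cystathionine gamma-lyase CTH, the stress factors DDIT3 and PPP1R15A and the lipoprotein receptor VLDLR rose. These transporters include SLC7A11 in both treatments and SLC1A4 without MMC, which no siCONTROL array detected. In untreated cells ATF4, its partner CEBPG, the pseudokinase TRIB3, the enzymes PHGDH, SHMT2, ASNS and CBS and the tyrosyl-tRNA synthetase YARS1 fell, and of these ATF4, TRIB3 and ASNS did not pass with MMC. In untreated cells 13 of the 39 measured members rose and 8 fell with an adjusted p under 0.05 in limma, and 18 did not pass. The background was high, since 40.3% of all genes passed this test, 20.4% as higher and 19.9% as lower. With MMC in both groups 14 members rose, 5 fell and 20 did not pass, against 41.3% of all genes, 20.8% higher and 20.4% lower.

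The median log2 change of the members was 0.07 without MMC and 0.23 with it, beside 0.00 and 0.01 over all genes tested. Of the members, 12 rose and 5 fell in both comparisons, and 16 passed in neither. Calls shared by both comparisons were not counted over all genes, so these counts have no background beside them. EIF2AK3, SLC7A11 and SLC1A4 were not detected on any siCONTROL array. These genes were measured only through the siIPMK groups, where they were high, and had to differ. SESN2 was detected on all 3 siCONTROL arrays with MMC but on no untreated siCONTROL array. Its untreated difference is therefore set against signals that were not detected. Among the 34 members detected on all 12 arrays, 9 rose and 8 fell without MMC, where 41.1% of 7851 such genes passed (19.3% higher, 21.8% lower). With MMC 11 rose and 5 fell, where 42.6% passed (20.3% higher, 22.3% lower). Without the siIPMK arrays of experiment 1, 16 members rose and 8 fell without MMC, where 53.7% of all genes passed (27.1% higher, 26.6% lower), and 18 rose and 6 fell with MMC, where 53.4% passed (27.6% higher, 25.8% lower). All siIPMK arrays lay above all siCONTROL arrays for 14 members and below them for 12 without MMC, and for 18 and 7 with MMC. Over all genes such separation held for 52.2% without MMC (25.7% above, 26.4% below) and 49.4% with MMC (24.7% above, 24.6% below).

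**Figure D1:**
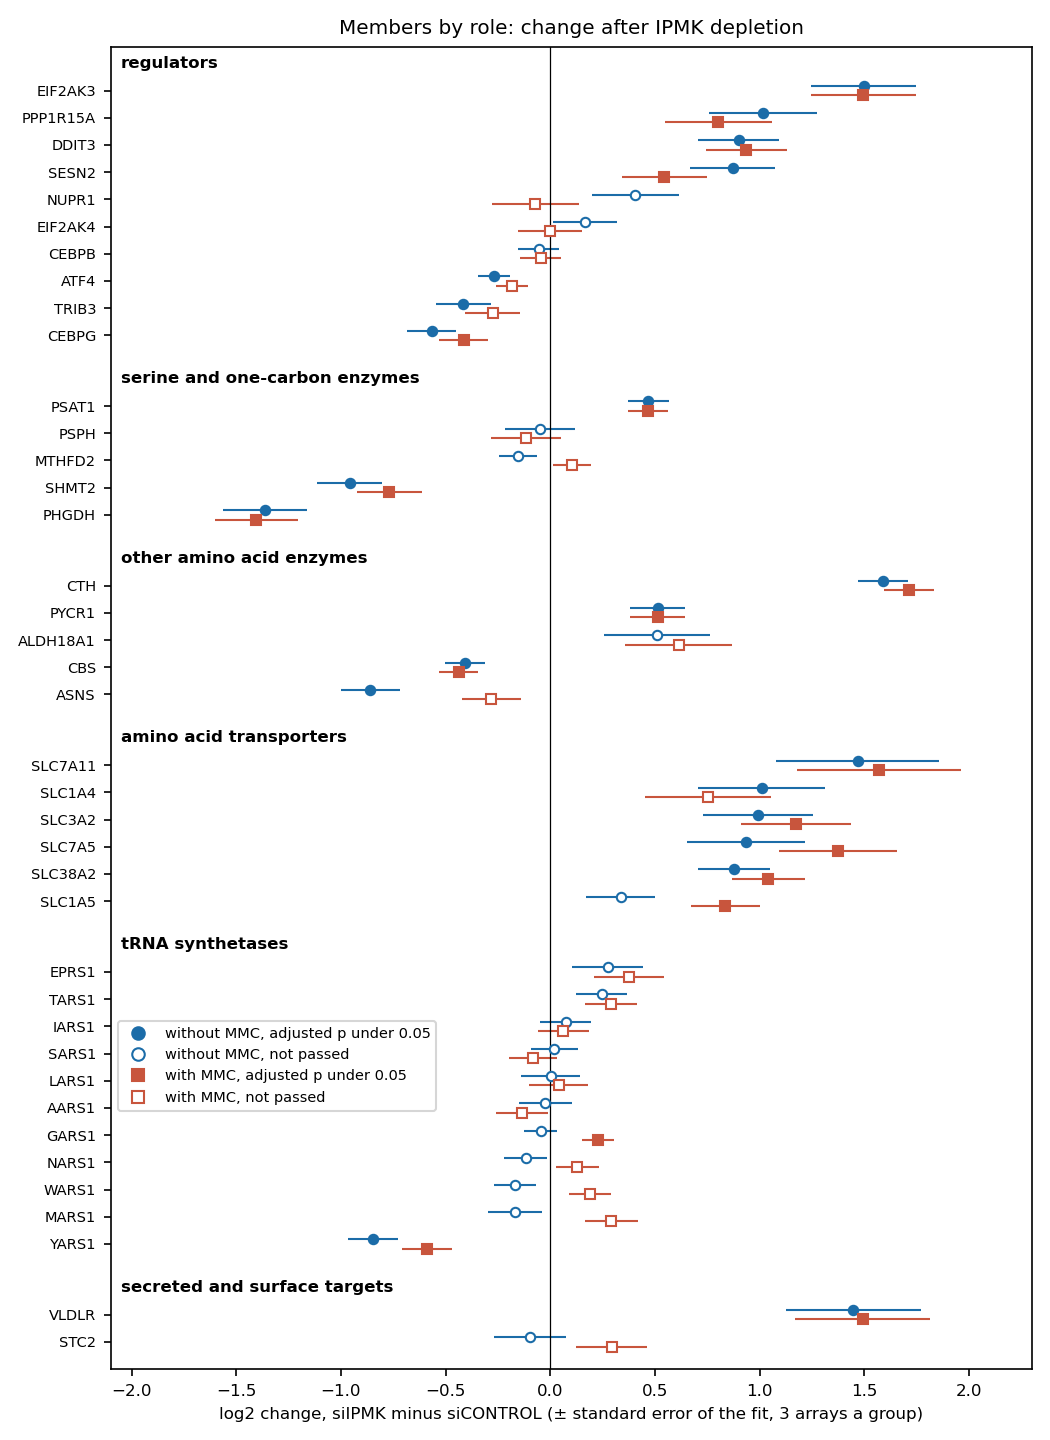
Log2 change after IPMK depletion (siIPMK minus siCONTROL, horizontal axis) for the 39 measured genes grouped by role, with bars of 1 standard error of the fit over 3 arrays a group. Circles are cells without MMC and squares cells with MMC, filled where the adjusted p was under 0.05. The transporters lie to the right of 0 and most synthetases lie near 0. The change of EIF2AK3, SLC7A11 and SLC1A4, and without MMC of SESN2, is set against signals that were not detected in siCONTROL cells.

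Among the regulators, 4 of 10 rose and 3 fell in untreated cells, and 4 rose and 1 fell with MMC, beside 20.4% of all genes higher and 19.9% lower without MMC and 20.8% and 20.4% with it. Of the 7 regulators detected on all 12 arrays, 2 rose and 3 fell without MMC, and 2 rose and 1 fell with MMC. ATF4 itself had a log2 normalised signal of 13.49, 13.46 and 13.34 in experiments 1, 2 and 3 of untreated siIPMK cells, against 13.65, 13.67 and 13.77 in untreated siCONTROL cells. With MMC it had 13.36, 13.25 and 13.27 in siIPMK cells and 13.40, 13.49 and 13.54 in siCONTROL cells. Every siIPMK array was below every siCONTROL array of its treatment, although the gap with MMC was small. The untreated difference of -0.27 ± 0.08 (log2, SE) passed limma's test with an adjusted p of 0.0124, and that with MMC, -0.18 ± 0.08, did not (0.0656). A second, dimmer ATF4 probe gave -0.35 without MMC (adjusted p 0.0827) and -0.42 with MMC (0.0418). The untreated ATF4 call was lost without array 3 of untreated siIPMK cells (adjusted p 0.0648) or array 3 of untreated siCONTROL cells (0.0571), and it held in 23 of 28 alternatives, with a highest adjusted p of 0.24.

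CEBPG, a C/EBP family protein that dimerises with ATF4, fell by 0.57 ± 0.12 without MMC (adjusted p 0.00196) and by 0.41 ± 0.12 with MMC (0.0119). The call with MMC was lost without array 2 of the siIPMK cells with MMC (adjusted p 0.0614). CEBPB, its relative, differed by -0.06 without MMC (95% interval -0.26 to 0.15) and by -0.05 with MMC (-0.25 to 0.16). TRIB3, an ATF4 target that feeds back on the pathway, had 9.71, 9.84 and 9.73 in untreated siIPMK cells, against 10.24, 9.97 and 10.31 in untreated siCONTROL cells. In the presence of MMC it had 9.38, 9.81 and 9.79 in siIPMK cells, against 9.94, 9.97 and 9.90 in siCONTROL cells. The groups did not overlap in either treatment, but the fall of 0.42 ± 0.13 passed without MMC (adjusted p 0.0217) and the difference of -0.27 with MMC did not (0.108). The untreated TRIB3 call was lost when array 3 of siIPMK cells or array 1 or 3 of siCONTROL cells was left out (adjusted p 0.0696, 0.0674 and 0.0905).

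DDIT3, which encodes the stress factor CHOP, moved the other way. It had 9.52, 9.08 and 9.27 in untreated siIPMK cells, against 8.76, 8.33 and 8.08 in untreated siCONTROL cells, and with MMC 9.66, 9.17 and 9.38 in siIPMK cells, against 8.78, 8.38 and 8.24 in siCONTROL cells. All siIPMK arrays were above all siCONTROL arrays, by 0.90 ± 0.19 without MMC (1.86-fold, adjusted p 0.00251) and 0.94 ± 0.19 with MMC (1.91-fold, 0.00191). PPP1R15A, the stress-induced phosphatase subunit GADD34 that reverses eIF2 phosphorylation, rose 2.02-fold without MMC (1.02 ± 0.26, adjusted p 0.00669) and 1.74-fold with MMC (0.80 ± 0.26, 0.0224). In siCONTROL cells its experiment 1 arrays, 11.02 with MMC and 10.77 without, were higher than those of the other experiments, which lay between 9.74 and 10.30. The call with MMC was lost without array 2 or 3 of either group with MMC (adjusted p between 0.0699 and 0.105).

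EIF2AK3, the endoplasmic reticulum stress kinase PERK, had 6.47, 7.24 and 6.93 in untreated siIPMK cells, against 5.24, 5.39 and 5.52 in untreated siCONTROL cells, where no array detected it. With MMC the values were 6.24, 7.01 and 6.84 in siIPMK cells and 4.96, 5.21 and 5.44 in siCONTROL cells. Set against the lowest detectable signal, EIF2AK3 was at least 1.26-fold higher in siIPMK cells without MMC and at least 1.19-fold higher with MMC. Such bounds divide the mean of the detected group by the mean, per array, of the lowest signal that was detected or of the probe's own signal where that was higher. The adjusted p in limma (4.87e-04 without MMC and 5.29e-04 with MMC) belongs to the difference without this bound. That difference uses siCONTROL signals that were not detected, so for EIF2AK3 this p is no support. The amino acid sensing kinase gene EIF2AK4 (GCN2) did not pass, at 0.17 without MMC (95% interval -0.16 to 0.49) and -0.00 with MMC (-0.33 to 0.33).

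SESN2, a stress-induced inhibitor of mTORC1 signalling, had 6.50, 6.78 and 7.32 in untreated siIPMK cells and 5.96, 6.15 and 5.89 in untreated siCONTROL cells, where it was not detected. It was at least 1.25-fold higher without MMC, and the adjusted p of 0.00411 in limma belongs to the difference without this bound. After MMC it had 7.39, 7.74 and 7.80 in siIPMK cells, against 7.17, 7.19 and 6.93 in siCONTROL cells, a rise of 0.54 ± 0.20 (adjusted p 0.044). That second call held in 16 of 27 alternatives and was lost on leaving out array 2 or 3 of siIPMK cells with MMC, any siCONTROL array, or array 2 of untreated siIPMK cells (adjusted p between 0.0502 and 0.142). NUPR1, a stress-induced chromatin protein, did not pass without MMC (0.41 ± 0.21, adjusted p 0.132) or with it (-0.07 ± 0.21, 0.805), and its groups overlapped. Its second probe did pass without MMC, at 1.06 (adjusted p 0.00518), so the probes disagree for NUPR1.

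The enzymes of serine synthesis did not move together. PHGDH, which commits glycolytic carbon to serine, had 12.70, 11.83 and 11.91 in untreated siIPMK cells, against 13.61, 13.33 and 13.59 in untreated siCONTROL cells. With MMC the values were 12.16, 11.52 and 11.64 in siIPMK cells, against 13.27, 13.13 and 13.13 in siCONTROL cells. Experiment 1 was the highest of the siIPMK arrays, yet no siIPMK array reached any siCONTROL array. PHGDH fell by 1.36 ± 0.20 without MMC (adjusted p 1.85e-04) and by 1.40 ± 0.20 with MMC (1.98e-04), and by 1.64 and 1.60 when the siIPMK arrays of experiment 1 were left out. It had the largest fall of all members, and 90 of the 9409 genes fell further without MMC.

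PSAT1, the next enzyme of that route, rose. It had 12.74, 12.84 and 13.01 in untreated siIPMK cells, against 12.24, 12.45 and 12.49 in untreated siCONTROL cells, and with MMC 13.13, 13.08 and 13.18 in siIPMK cells, against 12.77, 12.56 and 12.67 in siCONTROL cells. The groups were separate in both treatments, and the difference was 0.47 ± 0.10 in each (1.38-fold, adjusted p 0.00202 in each). PSPH, which makes the last step to serine, differed by -0.05 without MMC (95% interval -0.41 to 0.31) and -0.12 with MMC (-0.47 to 0.24).

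SHMT2, the mitochondrial enzyme that turns serine into glycine and one-carbon units, had 11.91, 11.48 and 11.39 in untreated siIPMK cells, against 12.51, 12.51 and 12.64 in untreated siCONTROL cells. The arrays with MMC gave 11.92, 11.29 and 11.37 in siIPMK cells and 12.34, 12.26 and 12.29 in siCONTROL cells. SHMT2 was thus lower on every siIPMK array, and it fell by 0.96 ± 0.16 without MMC (adjusted p 3.81e-04) and by 0.77 ± 0.16 with MMC (0.0017). MTHFD2, the next mitochondrial folate enzyme, did not pass, at -0.15 without MMC (95% interval -0.35 to 0.04) and 0.11 with MMC (-0.09 to 0.30).

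**Figure D2:**
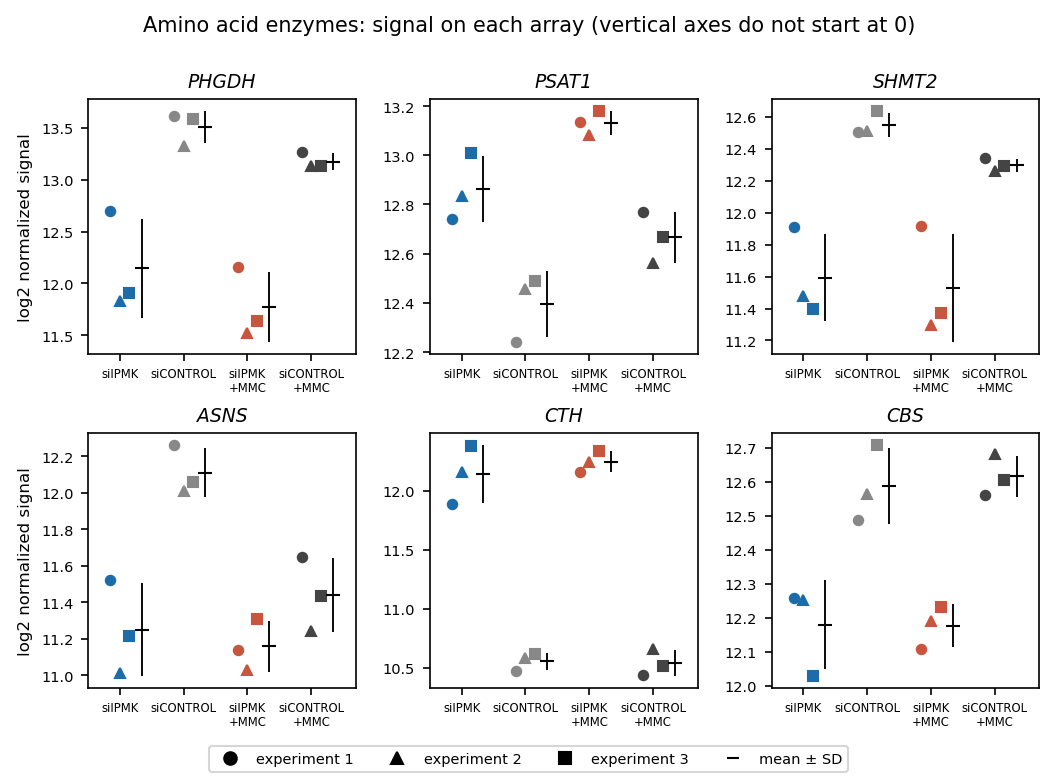
Log2 normalised signal of PHGDH, PSAT1, SHMT2, ASNS, CTH and CBS on each of the 12 arrays (vertical axes do not start at 0), with the mean and SD of each group beside its 3 points and symbols for the experiment. The siIPMK arrays lie below the siCONTROL arrays of their treatment for PHGDH, SHMT2 and CBS and above them for PSAT1 and CTH, and for ASNS the groups with MMC overlap.

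Among the other amino acid enzymes, CTH and CBS, the neighbouring steps of transsulfuration that turn homocysteine into cysteine, moved in opposite directions. CTH, the second step, had 11.89, 12.16 and 12.38 in untreated siIPMK cells, against 10.48, 10.58 and 10.61 in untreated siCONTROL cells. With MMC its values were 12.16, 12.25 and 12.34 in siIPMK cells, against 10.44, 10.65 and 10.52 in siCONTROL cells. Each siIPMK array exceeded the highest siCONTROL array by more than the whole spread of either group. CTH rose 3.01-fold without MMC (1.59 ± 0.12, adjusted p 3.88e-06) and 3.28-fold with MMC (1.71 ± 0.12, 2.31e-06), the largest rise of any member, with 92 and 55 of the 9409 genes rising further. Its other probes gave 1.58 and 1.29 without MMC and 1.59 and 1.35 with MMC.

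CBS, the first step, had 12.26, 12.25 and 12.03 in untreated siIPMK cells, against 12.49, 12.57 and 12.71 in untreated siCONTROL cells. In MMC-treated cells it had 12.11, 12.19 and 12.23 in siIPMK cells and 12.56, 12.68 and 12.60 in siCONTROL cells. The groups did not overlap, and CBS fell by 0.41 ± 0.09 without MMC (adjusted p 0.00381) and by 0.44 ± 0.09 with MMC (0.00239). PYCR1, the final enzyme of mitochondrial proline synthesis, rose 1.43-fold in both treatments (0.51 ± 0.13, adjusted p 0.00717 without MMC and 0.00678 with MMC). ALDH18A1, the first enzyme of that route, did not pass, at 0.51 ± 0.25 without MMC (adjusted p 0.123) and 0.61 ± 0.25 with MMC (0.0668). It did pass without the siIPMK arrays of experiment 1, at 0.67 without MMC (adjusted p 0.0112) and 0.90 with MMC (0.00149). That choice of arrays favours larger differences, so these passes are no separate support.

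ASNS, the asparagine synthetase and a standard reporter of ATF4 activity, had 11.52, 11.01 and 11.22 in untreated siIPMK cells, against 12.26, 12.01 and 12.06 in untreated siCONTROL cells. In the presence of MMC it had 11.14, 11.03 and 11.31 in siIPMK cells, against 11.65, 11.24 and 11.44 in siCONTROL cells. The untreated groups were separate and those with MMC overlapped. ASNS fell by 0.86 ± 0.14 without MMC (adjusted p 4.01e-04), a call that held in all 28 alternatives. With MMC the difference of -0.28 ± 0.14 did not pass (adjusted p 0.121, 95% interval -0.58 to 0.02). The second ASNS probe gave -0.76 without MMC (adjusted p 0.0256) and -0.28 with MMC (0.383).

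The amino acid transporters were the role in which most members rose: 5 of 6 without MMC and 5 of 6 with MMC, with medians of 0.96 and 1.11 and none lower, where 20.4% and 20.8% of all genes were higher. The counts of 5 include SLC7A11 in both treatments and SLC1A4 without MMC, and the medians include both genes. Neither gene was detected on any siCONTROL array, so these calls are no support. Of the 4 detected on all 12 arrays, 3 rose without MMC and 4 with MMC. The untreated count dropped to 2 without array 2 of untreated siIPMK cells and to 3 without array 3 of untreated siCONTROL cells. Without experiment 3 in every group 0 transporters rose without MMC and 1 with MMC, and without experiment 2 in every group 1 and 3 did. SLC7A5 and SLC3A2 are the light and heavy chains of the LAT1 exchanger, which brings leucine and other large neutral amino acids into cells. SLC7A5 had 12.19, 13.08 and 12.96 in untreated siIPMK cells, against 11.95, 11.87 and 11.60 in untreated siCONTROL cells. After MMC it had 12.07, 13.17 and 12.97 in siIPMK cells, against 11.57, 11.66 and 10.87 in siCONTROL cells. The siIPMK arrays of experiment 1 were much nearer to the siCONTROL arrays than those of experiments 2 and 3, though still above them. SLC7A5 rose 1.91-fold without MMC (0.94 ± 0.28, adjusted p 0.0169) and 2.59-fold with MMC (1.37 ± 0.28, 0.00184). Without the siIPMK arrays of experiment 1 the changes were 1.21 (adjusted p 4.93e-05) and 1.71 (2.14e-06). The untreated call was lost without array 2 or 3 of siIPMK cells (adjusted p 0.0802 and 0.0719) or array 3 of siCONTROL cells (0.0642).

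SLC3A2 had 9.56, 10.56 and 10.09 in untreated siIPMK cells, against 9.36, 9.24 and 8.65 in untreated siCONTROL cells, and with MMC 9.53, 10.39 and 10.25 in siIPMK cells, against 9.07, 8.88 and 8.69 in siCONTROL cells. Here too experiment 1 was the lowest siIPMK array in each treatment. SLC3A2 rose 1.99-fold without MMC (0.99 ± 0.26, adjusted p 0.00845) and 2.25-fold with MMC (1.17 ± 0.26, 0.00306), and a second probe gave 1.04 and 1.07. The untreated call was lost without array 2 of siIPMK cells (adjusted p 0.0504).

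SLC7A11, the cystine-importing subunit xCT, also pairs with SLC3A2. It had 5.56, 6.79 and 6.86 in untreated siIPMK cells, against 5.06, 4.95 and 4.80 in untreated siCONTROL cells. With MMC the values were 5.74, 7.20 and 6.61 in siIPMK cells and 4.78, 5.46 and 4.60 in siCONTROL cells. No siCONTROL array and, in each siIPMK group, 2 of 3 arrays detected it. It passed the test in both comparisons (adjusted p 0.00885 without MMC and 0.00581 with MMC in limma). These p-values use siCONTROL signals that were not detected, so for SLC7A11 they are no support. The detection limit allows only a rise of at least 1.05-fold with MMC and no fold without MMC.

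SLC38A2 (SNAT2), a sodium-coupled carrier of alanine, glutamine and other small neutral amino acids, rose 1.84-fold without MMC (0.88 ± 0.17, adjusted p 0.00146) and 2.06-fold with MMC (1.04 ± 0.17, 4.94e-04), with no overlap between groups. SLC1A5 (ASCT2), which exchanges glutamine, had 8.55, 8.76 and 8.80 in siIPMK cells with MMC, against 8.14, 7.83 and 7.63 in siCONTROL cells with MMC, a rise of 0.84 ± 0.17 (1.78-fold, adjusted p 0.00153). Without MMC its difference of 0.34 ± 0.17 did not pass (adjusted p 0.119). Without the siIPMK arrays of experiment 1, a choice that favours larger differences, SLC1A5 passed at 0.45 (0.0284). SLC1A4 (ASCT1), its close relative, was not detected in siCONTROL cells and has no fold. It passed without MMC (adjusted p 0.0163) but not with MMC (0.0587). The untreated call was lost without array 2 of siIPMK cells (adjusted p 0.0952) or array 2 or 3 of siCONTROL cells (0.0554 and 0.0651). For SLC1A4 too these p-values use siCONTROL signals that were not detected, so they are no support.

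**Figure D3:**
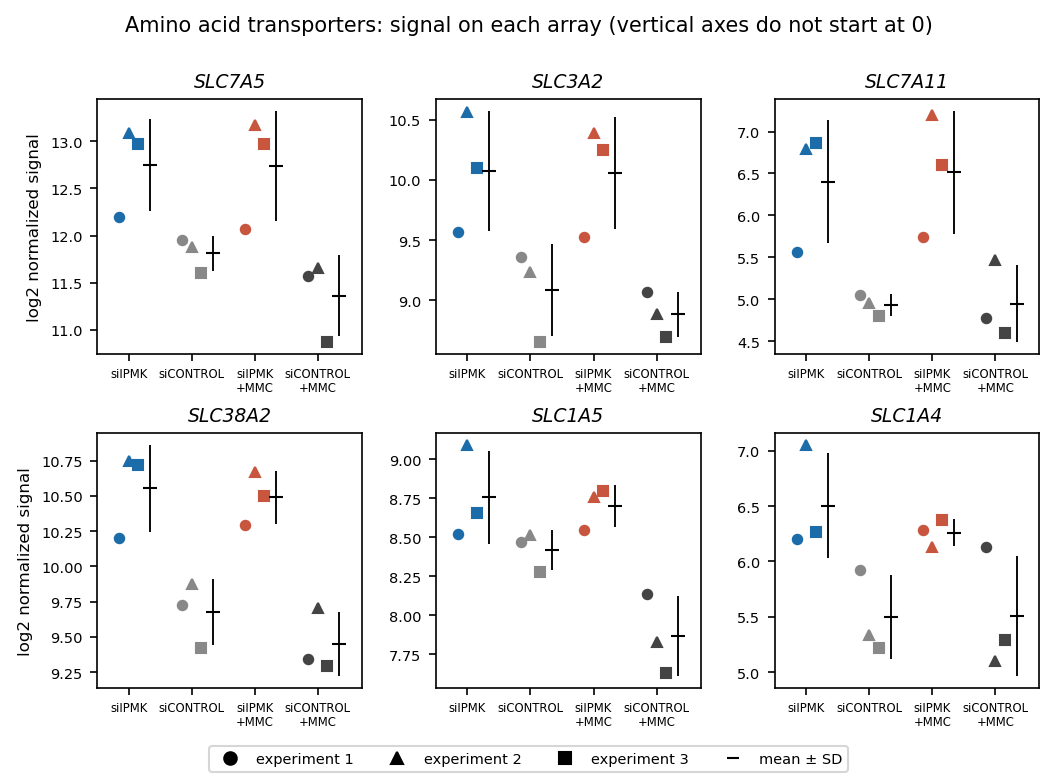
Log2 normalised signal of the 6 amino acid transporters on each of the 12 arrays (vertical axes do not start at 0), with the mean and SD of each group and symbols for the experiment. For SLC7A5 and SLC3A2 the siIPMK arrays of experiment 1 lie closest to the siCONTROL arrays. SLC7A11 and SLC1A4 were not detected on any siCONTROL array.

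The cytosolic aminoacyl-tRNA synthetases, which load each tRNA with its amino acid, changed little. Of 11 measured, none rose and 1 fell without MMC, and 1 rose and 1 fell with MMC, with medians of -0.02 and 0.13. Over all genes 20.4% were higher and 19.9% lower without MMC, and 20.8% and 20.4% with MMC. All siIPMK arrays lay below all siCONTROL arrays for 4 synthetases and above them for 0 without MMC. With MMC they lay above for 3 and below for 1. Over all genes 25.7% lay above and 26.4% below without MMC, and 24.7% and 24.6% with MMC. YARS1, for tyrosine, was the synthetase that fell in the test. It had 11.90, 11.38 and 11.52 in untreated siIPMK cells, against 12.49, 12.43 and 12.42 in untreated siCONTROL cells, and with MMC 11.71, 11.50 and 11.53 in siIPMK cells, against 12.11, 12.18 and 12.22 in siCONTROL cells. The groups were apart in both treatments, and YARS1 fell by 0.85 ± 0.12 without MMC (adjusted p 1.38e-04) and by 0.59 ± 0.12 with MMC (0.00165).

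GARS1, for glycine, had 12.27, 12.30 and 12.28 in untreated siIPMK cells, against 12.29, 12.38 and 12.32 in untreated siCONTROL cells. The arrays with MMC gave 12.32, 12.31 and 12.24 in siIPMK cells, against 12.08, 12.08 and 12.02 in siCONTROL cells. The siIPMK arrays with and without MMC and the untreated siCONTROL arrays shared 1 narrow range, and the siCONTROL arrays with MMC lay below it. GARS1 was 0.23 ± 0.08 higher in siIPMK cells with MMC (1.17-fold, adjusted p 0.0293) and differed by -0.05 without MMC (0.656). The call with MMC held in 19 of 28 alternatives. It was lost without array 2 of siIPMK cells with MMC or any siCONTROL array with MMC (adjusted p between 0.0519 and 0.0919), in a fit of the 2 groups alone (0.0847) and under both median scalings (0.0737 and 0.212).

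Without MMC the other 9 synthetase genes, which did not pass in either comparison, lay between -0.17 (MARS1 and WARS1, for methionine and tryptophan) and 0.27 (EPRS1, for glutamate and proline). With MMC they lay between -0.14 (AARS1, for alanine) and 0.38 (EPRS1). A second WARS1 probe gave -0.00 without MMC and 0.13 with MMC. The 95% interval was -0.29 to 0.25 for AARS1 and -0.18 to 0.33 for IARS1 without MMC, so differences of that size were not resolved at 3 arrays a group. Without the siIPMK arrays of experiment 1, EPRS1 passed at 0.41 without MMC (adjusted p 0.011) and 0.56 with MMC (0.00135). In that fit MARS1 passed at 0.34 with MMC (0.0443). The EPRS1 signals left out differed from the siCONTROL mean by 0.002 without MMC and 0.005 with MMC. Of all genes, 53.7% passed in that fit without MMC and 53.4% with MMC, so these passes are no separate support.

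**Figure D4:**
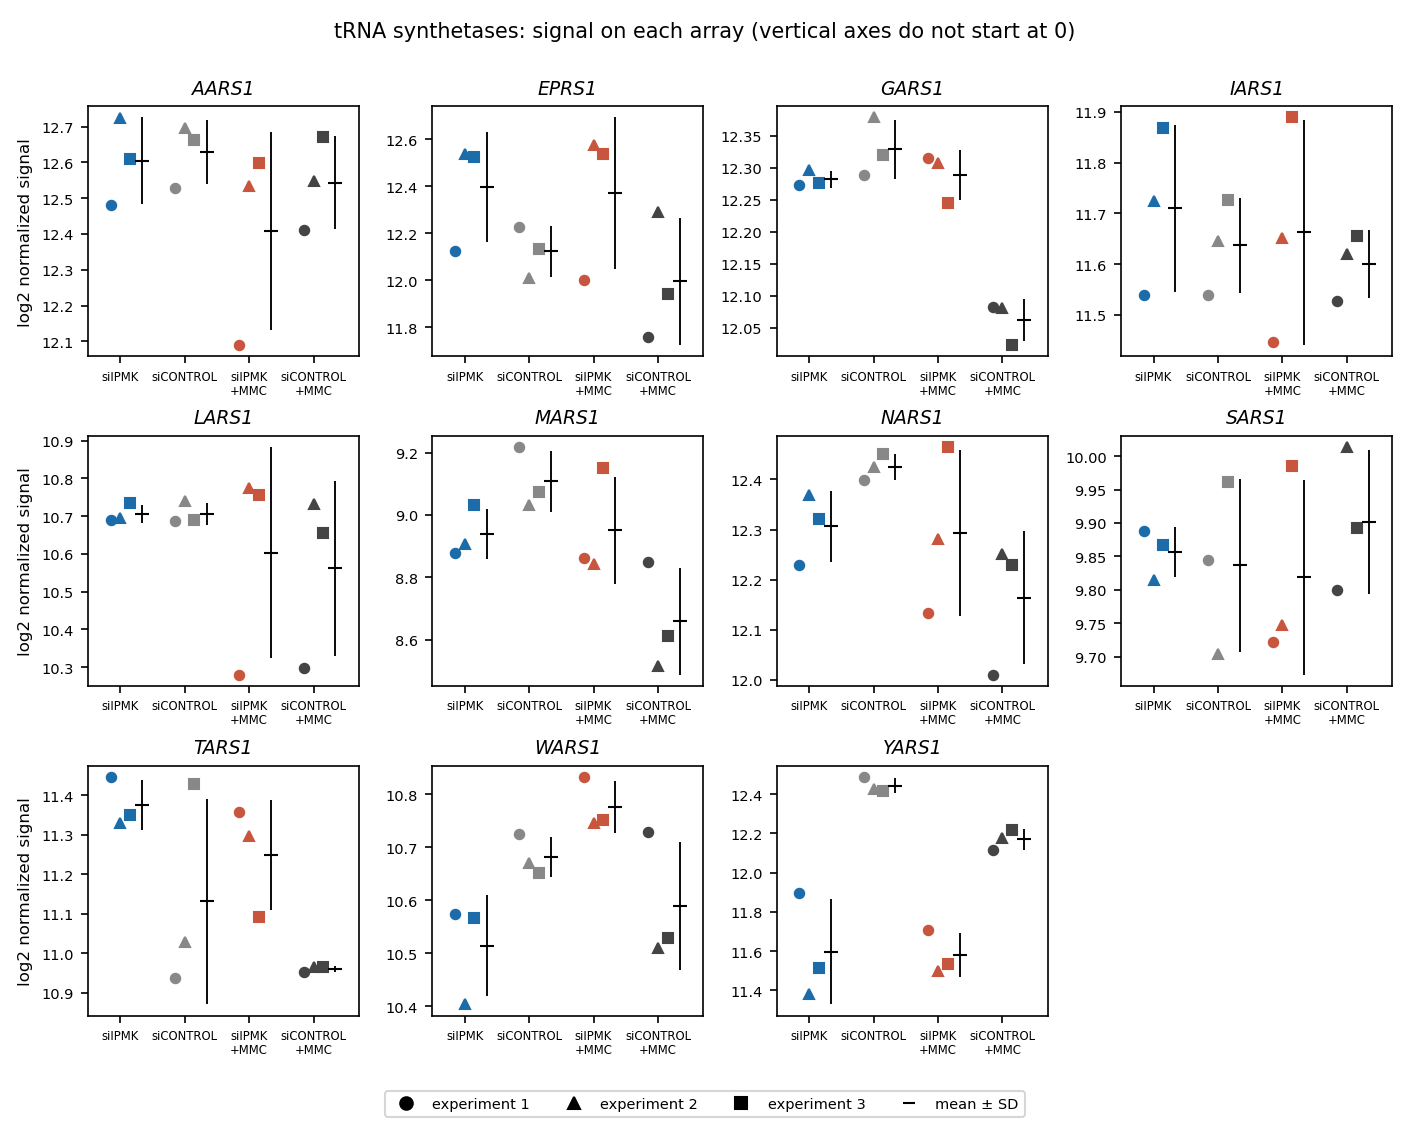
Log2 normalised signal of the 11 measured tRNA synthetase genes on each of the 12 arrays (vertical axes do not start at 0), with the mean and SD of each group and symbols for the experiment. YARS1 is lower on every siIPMK array than on any siCONTROL array of its treatment, and the GARS1 values of siCONTROL cells with MMC lie below the 3 other groups.

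The promoters were searched for the C/EBP-ATF element, which the choice of members by symbol did not use. Lists of ATF4 targets are drawn partly from genes known to carry it, so its share among them is a description. The sequence TGATGNAA, the core of that element, was searched on both strands from 250 bases before to 50 bases after each gene start in RefSeq promoters of GRCh38.p14, where 34 of the 42 genes had an entry. It occurred in 7 of 32 measured members (21.9%), beside 136 of 7824 tested genes (1.74%) and 1003 of all 27305 promoters (3.67%). By role it occurred in 5 of 9 synthetase genes, 1 of 5 transporters, 1 of 4 other amino acid enzymes and in none of 9 regulators, 3 serine and one-carbon enzymes and 2 secreted or surface genes. The matches are printed 5′ to 3′ on the gene's strand, with the match, or its reverse complement where the match lies on the other strand, in capitals.
ASNS, chr7:97872458-97872487, minus strand: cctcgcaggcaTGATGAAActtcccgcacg
AARS1, chr16:70289675-70289704, minus strand: ttttctcgcagTTGCATCAgccaagttaga
IARS1, chr9:92293692-92293721, minus strand: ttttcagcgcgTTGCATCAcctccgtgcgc
MARS1, chr12:57488053-57488082, plus strand: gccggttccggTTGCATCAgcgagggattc
NARS1, chr18:57621804-57621833, minus strand: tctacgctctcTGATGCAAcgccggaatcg
TARS1, chr5:33440956-33440985, plus strand: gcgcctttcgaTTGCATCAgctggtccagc
SLC3A2, chr11:62881725-62881748, plus strand: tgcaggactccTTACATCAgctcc
Of these 7 genes, ASNS fell and SLC3A2 rose without MMC, and the 5 synthetases did not pass in either depletion comparison. A match is a description of letters in this window and says nothing about binding.

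Of the secreted and surface members, VLDLR, the very low density lipoprotein receptor, had 10.09, 11.55 and 11.11 in untreated siIPMK cells, against 9.48, 9.58 and 9.35 in untreated siCONTROL cells. With MMC its values were 10.04, 11.28 and 11.06 in siIPMK cells, against 9.36, 9.40 and 9.14 in siCONTROL cells. All siIPMK arrays were higher, with experiment 1 again the nearest to the siCONTROL arrays. VLDLR rose 2.73-fold without MMC (1.45 ± 0.32, adjusted p 0.00313) and 2.81-fold with MMC (1.49 ± 0.32, 0.00251), and by 1.86 and 1.87 without the siIPMK arrays of experiment 1. STC2, the secreted glycoprotein stanniocalcin 2, did not pass, at -0.10 without MMC (95% interval -0.46 to 0.27) and 0.29 with MMC (-0.07 to 0.66).

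Further genes of the same pathways, listed by function, showed where the members sat. Of 70 such genes measured, 16 rose and 22 fell without MMC (54.3%, beside 40.3% of all genes), and 16 rose and 17 fell with MMC (47.1%, beside 41.3%). Among 9 eIF2 kinases and initiation factors, 3 rose and 5 fell without MMC and 2 rose and 5 fell with it. EIF2B1, a subunit of the exchange factor that phosphorylated eIF2 inhibits, had the largest fall in both treatments (-1.57 ± 0.19, adjusted p 5.21e-05, and -1.75 ± 0.19, 4.18e-05). The largest rises were EIF2S3 without MMC (0.42, adjusted p 0.0114) and EIF2AK2 with MMC (0.41, 0.0123). Among 15 other stress factors and targets 7 rose and 2 fell in each treatment. They were led by the secreted cytokine GDF15, at 2.82 ± 0.27 without MMC (adjusted p 8.48e-06) and 1.74 ± 0.27 with MMC (3.05e-04), and the largest fall was that of the chaperone HSPA5, at -0.71 and -0.88. The HSPA5 signal was low, with group means from 6.68 to 7.65. The lowest detected signal of an array was 6.16 to 6.61, so the size of this fall rests on signals near background.

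Of 7 other cytosolic synthetases measured, 3 fell without MMC, FARSA the furthest (-0.41, adjusted p 0.012), and none passed with MMC. Of 16 mitochondrial synthetases 3 fell without MMC, WARS2 the furthest (-0.67, adjusted p 0.00757), and with MMC IARS2 had the larger of 2 rises (0.48) and WARS2 the larger of 2 falls (-0.80). Of 15 other amino acid and folate enzymes, 3 rose and 7 fell without MMC and 1 rose and 6 fell with MMC. SHMT1, the cytosolic counterpart of SHMT2, fell by 1.51 without MMC and 1.78 with MMC, whereas ASS1, the argininosuccinate synthase, rose by 0.95 and 0.69. GLUL, the glutamine synthetase, was not detected in untreated siCONTROL cells and was at least 1.35-fold higher in untreated siIPMK cells. Of 8 other transporters 3 rose and 2 fell without MMC, and 4 rose and 2 fell with MMC. There the largest falls were SLC7A1, a cationic amino acid carrier (-1.33), without MMC and SLC25A22, a mitochondrial glutamate carrier (-1.10), with MMC, and the largest rises were SLC36A1 (0.72) and SLC43A2 (0.80). Beside the counts of these lists, 20.4% of all genes were higher and 19.9% lower without MMC, and 20.8% and 20.4% with MMC. Rises and falls were thus both common over all genes, so those of this second transporter list are a description.

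The second pair of comparisons asked what 24 h of MMC did to the same genes. In siIPMK cells no member passed in limma, where 0.361% of all genes passed. An unadjusted p under 0.05 was found there for 5 of 39 members, beside 531 of all 9409 genes. In siCONTROL cells 2 members rose and 1 fell, where 2.06% of all genes passed (1.96% higher and 0.106% lower). The arrays with and without MMC of the same siRNA and experiment number deviated together from their group means, with correlations of 0.346 to 0.704 in siIPMK cells and 0.193 to 0.486 in siCONTROL cells, so the comparison was also fitted within these pairs. The paired fit called 2 members higher and 1 lower in siIPMK cells, where 2.95% of all genes passed (1.96% higher, 0.999% lower). In siCONTROL cells it called 4 higher and 10 lower, where 10.1% passed (6.17% higher, 3.92% lower).

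SESN2 had 7.39, 7.74 and 7.80 in siIPMK cells with MMC, against 6.50, 6.78 and 7.32 in untreated siIPMK cells. The difference of 0.77 passed in the paired fit (adjusted p 0.00485) and not in the unpaired fit (0.22). In siCONTROL cells it had 7.17, 7.19 and 6.93 with MMC, against 5.96, 6.15 and 5.89 without, where it was not detected. It was at least 1.47-fold higher with MMC, and the adjusted p of 0.00753 in limma belongs to the difference without this bound. NUPR1 had 7.47, 6.84 and 6.95 in siIPMK cells with MMC, against 6.46, 6.71 and 6.47 without, and did not pass (0.54, adjusted p 0.67). In siCONTROL cells NUPR1 had 7.25, 7.14 and 7.09 with MMC, against 6.51, 6.14 and 5.78 without, a rise of 1.02 ± 0.21 (adjusted p 0.0159). It was detected on 1 of the 3 untreated siCONTROL arrays, so the size of this rise rests on signals near background, and the authors' processed values gave 0.40 (adjusted p 0.0257). This NUPR1 call was lost when any of 5 of the 6 siCONTROL arrays, all but array 1 without MMC, was left out (adjusted p between 0.0556 and 0.0886).

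ASNS differed within experiments of siIPMK cells by -0.38, 0.02 and 0.09 (MMC minus untreated), with a mean of -0.09 that did not pass. In siCONTROL cells it had 11.65, 11.24 and 11.44 with MMC, against 12.26, 12.01 and 12.06 without, with no overlap and a lower value in each experiment. There ASNS fell by 0.67 ± 0.14 (adjusted p 0.0187, and 6.85e-06 in the paired fit). The unpaired call was lost without array 2 or 3 of siCONTROL cells with MMC or any array of untreated siCONTROL cells (adjusted p between 0.054 and 0.129). The second, dimmer ASNS probe gave -0.82 in siCONTROL cells and did not pass in limma (adjusted p 0.157). In siIPMK cells it gave -0.34, also not passed, so the near absence of a fall there rests on 1 probe.

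In the paired fit of siIPMK cells STC2 rose by 0.68 (adjusted p 7.17e-04) and PHGDH fell by 0.37 (0.00625). In the paired fit of siCONTROL cells the synthetases GARS1 (-0.27), MARS1 (-0.45), NARS1 (-0.26) and YARS1 (-0.27) and the transporters SLC7A5 (-0.45) and SLC1A5 (-0.55) also fell, with adjusted p between 0.00123 and 0.0352. So did ATF4 (-0.22, adjusted p 0.0491), PHGDH (-0.33, 0.00668) and SHMT2 (-0.25, 0.0371), while PPP1R15A (0.35, 0.00872) and PSAT1 (0.27, 0.0358) rose. Counted by experiment, 7 of 39 members (17.9%) had lower signals with MMC in all 3 experiments of siIPMK cells, where 16.5% of all genes did. In siCONTROL cells 19 of 39 (48.7%) were lower in all 3 experiments, where 24% of all genes were. Among the 11 synthetases 2 were lower in all 3 experiments of siIPMK cells and 6 in those of siCONTROL cells. None of the 6 transporters was lower with MMC in all 3 experiments of siIPMK cells, and 3 were in those of siCONTROL cells.

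**Figure D5:**
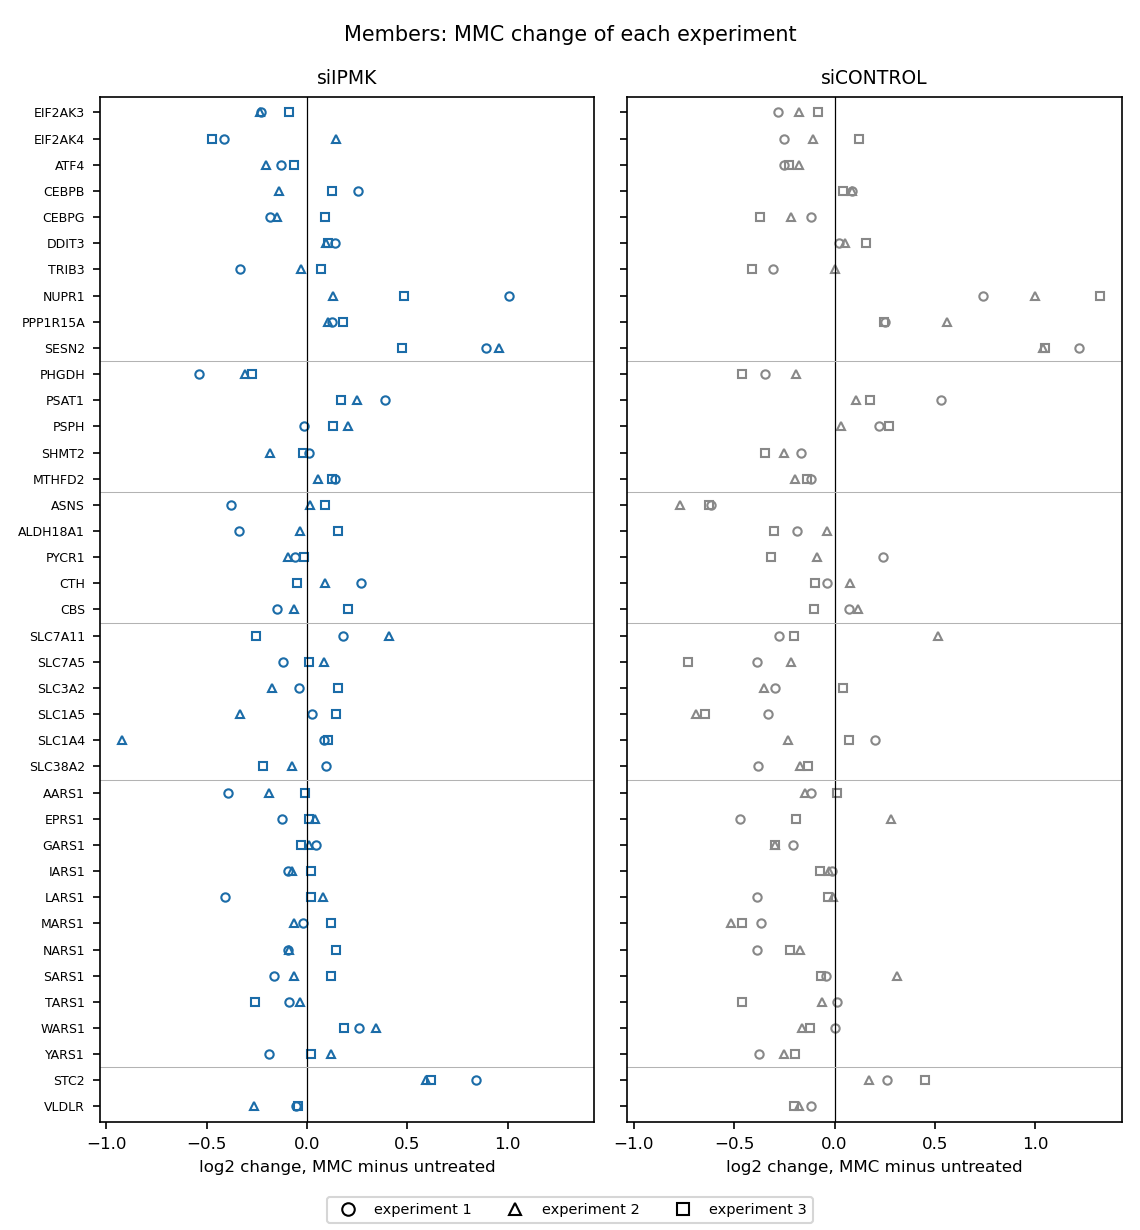
Log2 difference between cells with MMC and untreated cells of the same siRNA and experiment, for each measured gene, with siIPMK and siCONTROL cells side by side and the 3 experiments as points. All 3 points lie below 0 for 2 of 11 synthetases and none of 6 transporters in siIPMK cells, and for 6 synthetases and 3 transporters in siCONTROL cells.

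Among the other pathway genes, GDF15 rose with MMC in siIPMK cells (1.56 ± 0.27, adjusted p 0.019) and in siCONTROL cells (2.63 ± 0.27, 4.47e-05). In siCONTROL cells DDIT4 (0.81, adjusted p 0.00186), GLUL (at least 1.50-fold higher) and ASS1 (0.43, 0.0344) rose as well, and SLC7A1 fell by 0.60 (0.0293). The untreated depletion comparison and the MMC comparison in siCONTROL cells share the untreated siCONTROL arrays, so their values are only given side by side.

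Whether MMC acted differently in siIPMK and siCONTROL cells was tested as an interaction. No gene of 9409 passed in limma (0%), and 327 genes, 4 of them members, had an unadjusted p under 0.05. These 4 were ASNS (0.58 ± 0.20, 95% interval 0.15 to 1.00), MARS1 (0.46), GARS1 (0.27) and WARS1 (0.35). Second probes gave 0.48 for ASNS and 0.13 for WARS1. The fit within pairs called 60 genes (0.638%), and ASNS was the 1 member among them (adjusted p 0.0284). The positive sign means that the difference between siIPMK and siCONTROL cells was -0.28 with MMC and -0.86 without MMC. MTHFD2 was the 1 member with higher signals after MMC in all 3 experiments of siIPMK cells and lower ones in all 3 of siCONTROL cells. This joint pattern was not counted over all genes. Of all genes 18% were higher in all 3 experiments of siIPMK cells, and 24% were lower in all 3 of siCONTROL cells. The MTHFD2 interaction of 0.26 did not pass in limma (adjusted p 0.999). Intervals of this width leave interactions of the other members unresolved.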

How the data were processed

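Cytoplasmic RNA of 12 Cal51 samples was hybridised to single-colour Illumina bead arrays. The deposited files give, per the file headers, a non-normalised probe intensity and a detection p-value for 48802 probes, and the bead number. A second deposited table holds log2 values of 14853 probes that the authors made with lumi (version not given), per the submitters' processing notes; its remaining steps are not given in the sources used here, and it served as an alternative. Intensities were normalised here with neqc of limma 3.58.1 in R 4.3.3 (normexp background from detection p-values, offset 16, quantile, log2). Of 13830 probes with detection p under 0.01 on at least 3 arrays, 12086 carried a gene name, with symbols updated by Entrez identifier, and the probe of highest mean signal per gene gave 9409 genes. Of the 12852 probes in the annotation, 12850 had 1 symbol and 2 had several. Group means were fitted with lmFit and eBayes (trend) over all 4 groups, and p-values were adjusted by the Benjamini-Hochberg method over all genes, with a threshold of 0.05. The number of arrays limits the precision, and 20 to 21 beads (median) lay behind each probe value.

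Members and gene lists were chosen with earlier results of these data known. Values on every array are given for the members that passed the unpaired test with the 4 largest rises or falls in a comparison and for ATF4, DDIT3, TRIB3, ASNS, PSAT1, PHGDH, SLC7A11, SESN2 and GARS1; those of SLC7A5, SLC3A2 and SLC1A5 were added after their values were seen. In each further list the called genes with the largest rise and fall are named; DDIT4, and ASS1 beside GLUL, were added after their values were seen. Within an siRNA every correlation between arrays of the same experiment number was above 0.1 (0.193 to 0.704), and these arrays were paired. Across siRNAs the correlations ranged from -0.022 to 0.208, so some were above 0.1 and the split was not clean. A block over both siRNAs was run as an alternative. Alternatives covered scaling, background, offset, the authors' values, filters, probes per gene, pairing, array weights and left-out arrays.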

Additional observations from a re-analysis of the deposited data

Results flagged for a closer look

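ASNS was the 1 member for which the effect of MMC differed between siIPMK and siCONTROL cells by a test of the difference itself, and only when arrays were paired within each siRNA: the interaction was 0.58 on the log2 scale (adjusted p 0.0284 in limma). In the fit without pairs its adjusted p was 0.999. The second ASNS probe gave an interaction of 0.48 without pairs, did not pass, and was not fitted within pairs. Outliers within groups were not tested, since each group holds 3 arrays.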

How the results depend on the processing

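Across 29 alternatives no called value changed sign. Over all alternatives, repeats of calls kept their side of the threshold 1094 times and lost it 104 times, and repeats of values that did not pass went past it 93 times. Leaving out arrays moved the members called higher between 2 and 17 without MMC and 3 and 19 with MMC after IPMK depletion, and those called lower between 4 and 8 and between 1 and 6. The low ends came from leaving out a whole experiment in every group: 2 higher and 4 lower (without MMC) and 3 and 2 (with MMC) without experiment 3, and 5 and 4, and 7 and 1, without experiment 2, while without experiment 1 they were 17 and 8, and 19 and 6; fewer samples remain in each such fit. For MMC in siCONTROL cells the range was 0 to 3 higher and 0 to 6 lower, the 6 arising without the siIPMK arrays of experiment 1, and for MMC in siIPMK cells and the interaction it was 0. The remaining counts that moved by more than 1.5 times were those for MMC. In siCONTROL cells 0 members rose when detection on all 12 arrays was required, 6 fell with arrays of an siRNA and experiment as a random replicate block and 4 with array weights, and 4 rose and 10 fell with the fixed pairs. In siIPMK cells 2 rose with the random block, 1 with array weights, and 2 rose and 1 fell with the fixed pairs, which called 1 member higher in the interaction; the cause was not tested. A replicate block over experiment numbers shared by both siRNAs called 13 higher and 8 lower without MMC and 15 and 6 with MMC; it made the ASNS difference with MMC pass (adjusted p 0.0365). Median scaling brought the median of all genes to 0.13 without MMC and 0.14 with MMC, against 0.00 and 0.01 with quantile normalisation, and called 16 members higher and 6 lower without MMC and 17 and 4 with MMC; rises were then 69.6% and 69.5% of all calls, against 50.7% and 50.5% with quantile normalisation and all arrays. Under it ATF4 (-0.30, adjusted p 0.0524) and TRIB3 (-0.30, 0.126) without MMC and CEBPG with MMC (-0.25, 0.172) did not pass, and all 6 transporters rose in both treatments. Median scaling over probes detected on all 12 arrays, added after seeing the data, called 13 and 10, and 13 and 6, with rises 46.9% and 47.9% of all calls. Dim genes had smaller changes in the authors' values, 0.49 for EIF2AK3, 0.45 for SLC7A11, 0.30 for SLC1A4 and 0.32 for SESN2 without MMC, and 0.40 for NUPR1 with MMC in siCONTROL cells. The fixed pairs and the fits without the siIPMK arrays of experiment 1 were also added after seeing the data. Slide was not run as a block because the slide is not given in the sources used here. Signal over background limits EIF2AK3, SLC7A11 and SESN2, whose rise is at most known as a lower bound, SLC1A4, which has no bound, and NUPR1.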
